A study of Mus musculus with 12 samples.

Results

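The miRNAs described here are those encoded within Htr2c, the gene of the 5-HT2C serotonin receptor on the mouse X chromosome. Rows of the deposited table were taken by name where the miRNA was Mir-448, Mir-764, Mir-1264, Mir-1298 or Mir-1912, with every arm kept, and 5 of the 513 arms in the table were found. They are both arms of Mir-1298, both arms of Mir-448 and the 3p arm of Mir-1912, while Mir-764 and Mir-1264 matched no row and are not analysed here. Row names follow MirGeneDB families, which can differ from the miRBase numbers used to name the hairpins, so a hosted arm filed under another family name would not be found by this rule. The libraries are small RNA from the hippocampus of 12 male wild-type C57BL/6J mice. In the exercised lineage, 6 mice were F2 grandsons, through the male line, of exercised F0 males. The other 6, the sedentary lineage, descend in the same way from sedentary F0 males. The labels name no exercise for the F2 mice themselves. The labels give no age.

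Intronic miRNAs are cut from a longer transcript, usually that of the host gene, by Drosha and Dicer, and a mature arm loaded into an Argonaute protein represses mRNAs that pair with its seed, the bases from position 2 to position 8. The arm that is usually loaded is the guide, and the arm opposite it, marked here by an asterisk as in MirGeneDB, is the passenger. Htr2c is known for very high expression in the epithelium of the choroid plexus, the tissue that makes cerebrospinal fluid and lies in the ventricle beside the hippocampus, and is also expressed in subsets of neurons.

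All the hairpins lie on the plus strand of chromosome X within Htr2c (chrX:146962513-147197277, mm10, GENCODE), and none is overlapped by an exon of the 4 protein-coding transcripts. Relative to transcript Htr2c-201, with 6 exons, Mir1912 (chrX:147009441-147009527) and Mir1298 (chrX:147064905-147065002) lie in intron 2, at 46.9 kb and 102 kb from the start of the gene. Mir448 (chrX:147158210-147158321) lies in intron 4, at 196 kb, so that exons 3 and 4 and 93.2 kb lie between it and Mir1298. The 2 hairpins that are not analysed, Mir764 and Mir1264, are also in intron 2.

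**Figure D1:**
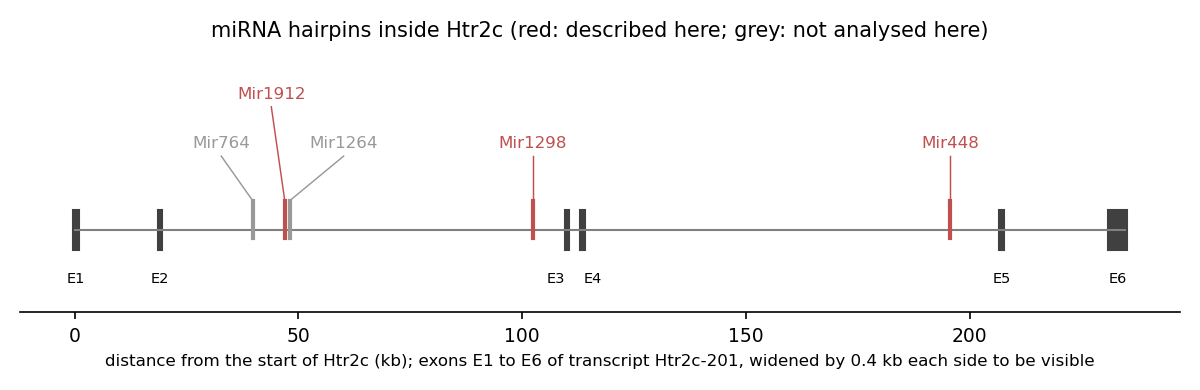
Position of 5 miRNA hairpins along Htr2c, as distance from the gene's start in kb, with the exons of transcript Htr2c-201 as black boxes. Mir1912 and Mir1298 share intron 2 with Mir764 and Mir1264, and Mir448 stands alone in intron 4.

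The mature sequences of the 5 measured arms are shown because they set which targets each arm can pair with. Each was matched to its row by name, and whether the row counted exactly that sequence was not checked. The sequences are from RefSeq (GRCm38.p6, the mm10 assembly), 5′ to 3′, all on the plus strand, with the seed in capitals.
Mir-1298_5p (mmu-miR-1298-5p, chrX:147064918-147064939): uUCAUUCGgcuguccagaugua
Mir-1298_3p* (mmu-miR-1298-3p, chrX:147064970-147064991): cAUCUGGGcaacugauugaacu
Mir-448_3p (mmu-miR-448-3p, chrX:147158281-147158302): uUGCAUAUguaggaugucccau
Mir-448_5p* (mmu-miR-448-5p, chrX:147158221-147158242): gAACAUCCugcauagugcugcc
Mir-1912_3p (mmu-miR-1912-3p, chrX:147009493-147009514): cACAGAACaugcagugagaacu
All 5 are 22 bases long and no 2 of them share a seed. Among 1679 mature mouse miRNA names in the same RefSeq set, none of the others has a seed equal to that of any of these 5 arms. The arms that share a host gene therefore do not form a seed family.

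The hairpins are shown to place the arms, with the annotated mature arms in capitals.
Mir1298: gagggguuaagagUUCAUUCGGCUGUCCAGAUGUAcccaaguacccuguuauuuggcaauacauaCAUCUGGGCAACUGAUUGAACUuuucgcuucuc
Mir448: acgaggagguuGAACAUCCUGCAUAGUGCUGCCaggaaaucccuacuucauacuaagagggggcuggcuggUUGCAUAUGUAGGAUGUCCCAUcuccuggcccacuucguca
Mir1912: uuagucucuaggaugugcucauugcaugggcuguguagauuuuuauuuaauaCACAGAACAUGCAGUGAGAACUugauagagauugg
Mir1298 and Mir448 carry an annotated arm on each side of the loop, and Mir1912 carries an annotated 3p arm.

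Depth was 6862623 to 10219856 miRNA reads per library in exercised-lineage mice and 7313305 to 10057266 in sedentary-lineage mice. Values are normalized counts, in which the reads of a library have been divided by a size factor of that library. No molecular identifiers are named, so PCR copies count as reads. The labels number the mice within each lineage, so each library is 1 animal. By their first characters the sample codes form 4 sets of 3 mice, R31 and R41 (exercised lineage) and S11 and S41 (sedentary lineage), and no label explains the code. If the animals of a set are related, p-values and intervals that count 6 independent mice per lineage could be too small.

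Mir-1298_5p was by far the most abundant of the Htr2c-hosted arms. It had 14859, 26790 and 124745 normalized counts (lowest, median and highest) in the exercised lineage, against 12623, 57925 and 124316 in the sedentary lineage. High levels came from exercised replicates 1 and 3 and from sedentary replicates 1, 2 and 5, and the 2 groups covered nearly the same range. The highest library stood 9.88 times above the lowest. Within a library, Mir-1298_5p ranked between 14 and 54 of all arms in the exercised lineage and between 16 and 62 in the sedentary lineage. The 5 hosted arms together took 0.196% to 1.91% of all normalized counts in exercised-lineage mice and 0.154% to 1.49% in sedentary-lineage mice, and Mir-1298_5p made up 91.1% to 96.5% of that sum in both.

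Mir-1298_3p*, the passenger arm of the same hairpin, had 886, 1058 and 2053 normalized counts (lowest, median, highest) in the exercised lineage, against 849, 1558 and 2192 in the sedentary lineage. The libraries with much Mir-1298_5p were also highest for this arm, but its highest library was only 2.58 times its lowest.

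Mir-448_3p, the guide arm from intron 4, had 337, 564 and 2464 normalized counts in the exercised lineage, against 291, 1045 and 2190 in the sedentary lineage. Exercised replicates 1 and 3 and sedentary replicates 1, 2 and 5 were again the 5 highest, and the span over all libraries was 8.47-fold. Mir-1912_3p, from intron 2, was a low arm with 17.0, 33.9 and 174 normalized counts in the exercised lineage, against 17.2, 68.4 and 202 in the sedentary lineage. The same libraries were high, and the span was 11.9-fold.

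Mir-448_5p*, the passenger arm of Mir-448, was close to the lower end of the table. It had 0, 10.8 and 17.6 normalized counts in the exercised lineage, against 6.34, 9.48 and 17.4 in the sedentary lineage. It is listed at 0 in exercised replicate 4, where the mean of the other 11 libraries would correspond to 8.46 reads. Its highest values lay in exercised replicate 1 and sedentary replicates 3 and 5, so its order differed from that of the guide arm.

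By mean over the 12 libraries the order was Mir-1298_5p (59760 normalized counts), Mir-1298_3p* (1434), Mir-448_3p (1123), Mir-1912_3p (81.9) and Mir-448_5p* (10.6). Mir-1298_3p* and Mir-448_3p do not separate beyond their spread, since the first was the higher in 9 of 12 libraries and their ranges overlap. The other neighbours in this order kept it in 12 of 12 libraries, although the ranges of Mir-1912_3p and Mir-448_5p* also overlap slightly across libraries.

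**Figure D2:**
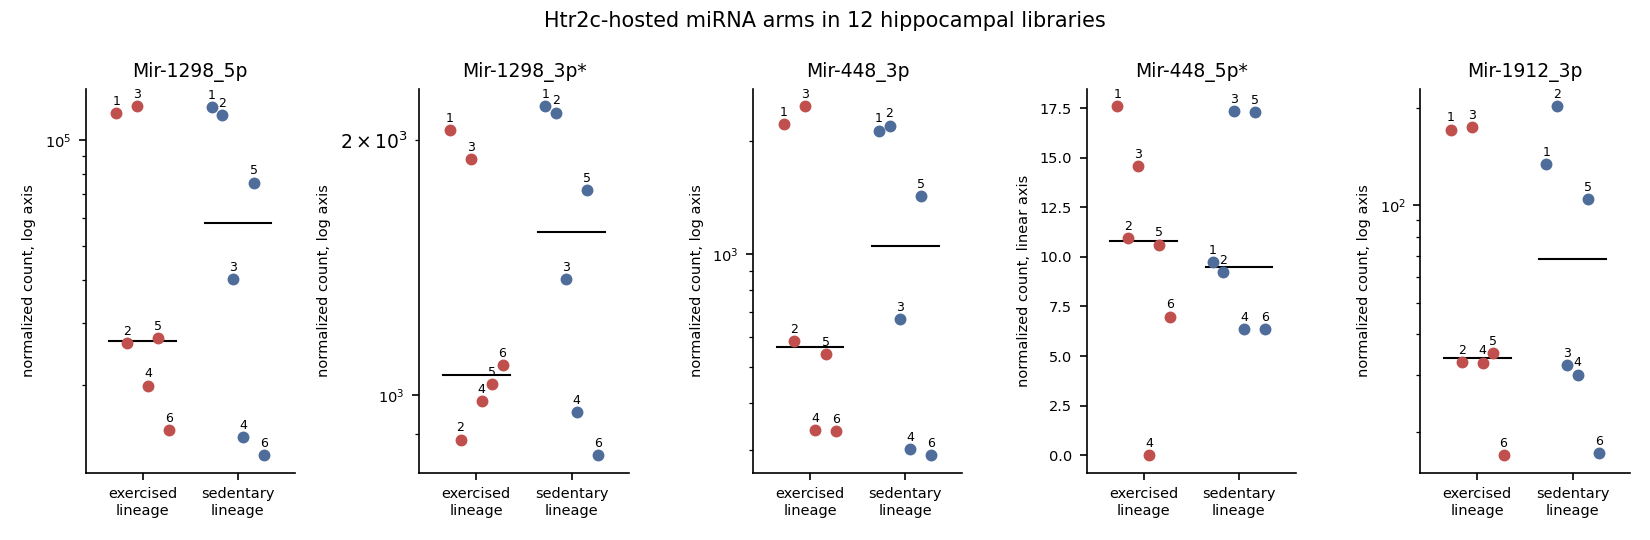
Normalized counts of the 5 arms in each library, exercised lineage left and sedentary lineage right, with mouse numbers beside the points and a line at the group median (log axes, except a linear axis for Mir-448_5p*). Exercised mice 1 and 3 and sedentary mice 1, 2 and 5 are the highest for Mir-1298_5p, Mir-1298_3p*, Mir-448_3p and Mir-1912_3p.

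No hosted arm passed the test between the lineages. All 5 passed the filter of a mean of at least 10 normalized counts, which kept 474 arms, and 0 of the 5 had a limma adjusted p below 0.05. Among all 474 arms, 0 (0%) were called in either direction, the lowest limma adjusted p was 0.532, and 34 (7.17%) had an unadjusted p below 0.05, while 0 of the 5 hosted arms did. Folds are given on the log2(value + 1) scale, exercised minus sedentary lineage. The median fold of the 5 hosted arms was -0.21, and it was -0.0013 over all 474 arms, with 236 above 0 and 238 below. The values of the lineages overlapped for each hosted arm, and 0 of the 474 arms (0%) had groups that do not overlap.

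Mir-1298_5p averaged 55376 ± 51783 normalized counts in exercised-lineage mice and 64144 ± 49708 in sedentary-lineage mice (SD, n = 6 each). The fold was -0.22 (SE 0.71, limma adjusted p = 0.955). Its 95% confidence interval ran from -1.747 to 1.3001, so a level 2.46 times that of the sedentary lineage and one at 0.298 of it both lie inside the interval. Mir-448_3p averaged 1079 ± 982 in exercised-lineage mice against 1167 ± 871 in sedentary-lineage mice, with a fold of -0.16 (95% confidence interval -1.59 to 1.26, limma adjusted p = 0.960). Mir-1912_3p averaged 77.1 ± 74.2 in exercised-lineage mice and 86.7 ± 73.3 in sedentary-lineage mice, with a fold of -0.21 (-1.729 to 1.2998, limma adjusted p = 0.955). In each of these arms 4 of 6 exercised-lineage libraries lay below the sedentary median.

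The interval was narrower for Mir-1298_3p*, which averaged 1323 ± 513 in exercised-lineage mice and 1545 ± 582 in sedentary-lineage mice (fold -0.21, 95% confidence interval -0.83 to 0.40, limma adjusted p = 0.806). Mir-448_5p* averaged 10.1 ± 6.14 in exercised-lineage mice against 11.1 ± 5.06 in sedentary-lineage mice (fold -0.44, -1.84 to 0.96, limma adjusted p = 0.821). The fold of Mir-448_5p* was -0.10 with a pseudocount of 10 and -0.59 with a pseudocount of 0.5. The sign of the folds was not stable. Without sedentary replicate 1 the folds were 0.071 for Mir-1298_5p, 0.099 for Mir-448_3p and 0.012 for Mir-1912_3p. They were 0.056, 0.11 and 0.13 without sedentary replicate 2, and 0.050, 0.072 and 0.098 without exercised replicate 6. Without exercised replicate 4 the fold of Mir-448_3p was 0.070 and that of Mir-448_5p* was 0.17.

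The wide intervals of the guide arms go with an unusually large spread among mice of the same lineage. The SD of log2 values within a lineage was 1.40 for Mir-1298_5p, 1.31 for Mir-448_3p, 1.38 for Mir-1912_3p and 0.55 for Mir-1298_3p*, beside a median of 0.29 over the 474 arms. From the largest down, these SDs ranked 20, 28, 21 and 81 of the 474, in the same order. Mir-1298_5p had the largest such SD among the 28 most abundant arms of the table. Among arms at least as abundant as Mir-448_3p or Mir-1912_3p, 3 of 161 and 3 of 339 had an SD at least as large, counting the arm itself. Within the stem sets Mir-1298_5p ran from 26341 to 124745 in R31, from 14859 to 27239 in R41, from 40200 to 124316 in S11 and from 12623 to 75649 in S41, so that R41 held none of the 5 highest libraries. Without the R41 libraries the fold of Mir-1298_5p was 0.71, and without the R31 libraries -1.16. It was 0.68 without the S11 libraries and -1.13 without the S41 libraries.

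**Figure D3:**
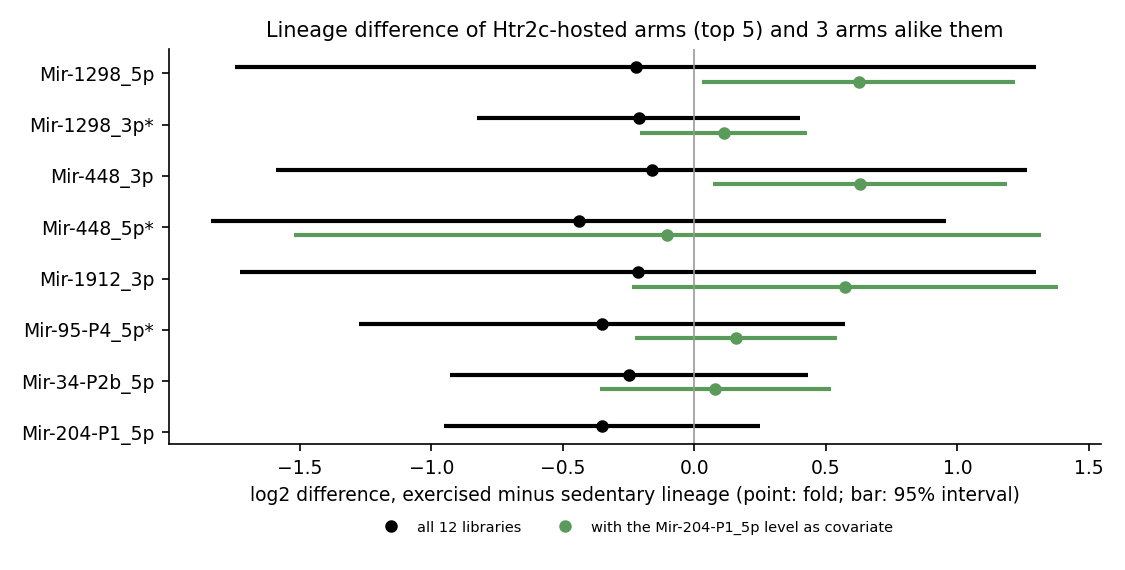
Log2 difference, exercised minus sedentary lineage, with its 95% confidence interval, for the 5 hosted arms and for 3 arms of like pattern, from limma over all 12 libraries (black) and with the Mir-204-P1_5p level as a covariate (green, not fitted for that arm itself). The black intervals of Mir-1298_5p, Mir-448_3p and Mir-1912_3p reach beyond 1 log2 unit on both sides of 0.

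The guide arms of the different hairpins were high in the same libraries, and Mir-1298_5p and Mir-448_3p kept the closest proportion. Mir-1298_5p stood at 44.1 to 58.7 times Mir-448_3p in the exercised lineage and at 43.4 to 59.9 times in the sedentary lineage, a 1.38-fold span over libraries whose levels differed more than 8-fold. Pearson's r between them on the log2 scale was 0.99 over 12 libraries (Spearman's rho 0.97), and it was 0.99 within the exercised and 1.00 within the sedentary lineage (n = 6 each). Mir-1298_5p stood at 609 to 876 times Mir-1912_3p in the exercised and at 474 to 1247 times in the sedentary lineage, a 2.63-fold span, with 17 to 215 reads of Mir-1912_3p per library. The ratio of Mir-448_3p to Mir-1912_3p spanned 2.07-fold. Between Mir-1298_5p and Mir-1912_3p, r was 0.97 over 12 libraries, 0.99 within the exercised and 0.94 within the sedentary lineage. Without the 2 libraries farthest from the median of Mir-1298_5p, r was 0.99 with Mir-448_3p and 0.96 with Mir-1912_3p (n = 10). These correlations are descriptions across libraries, and the arms of a library share its size factor and its depth. The libraries lie unevenly along Mir-1298_5p, with 4 at 117838 normalized counts or above, 6 at 27239 or below and 2 between. How far r rests on that contrast was not computed. A rise of 1 log2 unit in Mir-1298_5p went with 0.93 in Mir-448_3p and 0.95 in Mir-1912_3p, in both cases the least-squares slope.

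The arms of the Mir-1298 hairpin did not keep a fixed proportion. The ratio of Mir-1298 5p to 3p counts was 13.7 to 65.6 in the exercised lineage and 14.9 to 56.7 in the sedentary lineage. It was 65.6 in exercised replicate 3 and 58.0 in exercised replicate 1, the libraries of that lineage with most Mir-1298_5p, and 13.7 in exercised replicate 6, the one with least. On the log2 scale the ratio followed the level of Mir-1298_5p, which is also its numerator, with r = 0.98 over 12 libraries. The slope of Mir-1298_3p* on Mir-1298_5p was 0.39 log2 per log2. On the linear scale Mir-1298_3p* followed a line with 10.7 counts per 1000 counts of Mir-1298_5p and an intercept of 794 counts (r = 0.97). The SD of the log2 arm ratio over libraries was 0.84 for Mir-1298, the largest of the 39 hairpins in which both arms averaged at least 500 normalized counts, where the median was 0.27. Among all 155 hairpins with both arms at a mean of at least 10, Mir-1298 ranked 20 and the median was 0.39. Mir-448, with its low 5p arm, ranked 15 there, with an SD of 1.15.

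The Mir-1298 ratio did not differ detectably between the lineages. Its log2 mean was 4.94 ± 0.87 in exercised-lineage mice and 4.95 ± 0.89 in sedentary-lineage mice (SD, n = 6 each), a difference of -0.012 (exact permutation p = 0.968, two-sided, Benjamini-Hochberg adjusted p = 0.968 over 2 hairpins). The log2 ratio of Mir-448 5p to 3p was -6.53 ± 1.21 in exercised-lineage mice against -6.25 ± 1.18 in sedentary-lineage mice (difference -0.28, exact permutation p = 0.688, adjusted 0.968), but its 5p arm rests on at most 21 reads per library and is listed at 0 in exercised replicate 4. The sign of the Mir-1298 difference turned without any of 6 libraries, to 0.22 without exercised replicate 6, 0.16 without sedentary replicate 1, 0.15 without sedentary replicate 2, 0.11 without exercised replicate 4, 0.086 without sedentary replicate 5 and 0.031 without exercised replicate 5. That of Mir-448 turned to 0.0995 without exercised replicate 4.

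**Figure D4:**
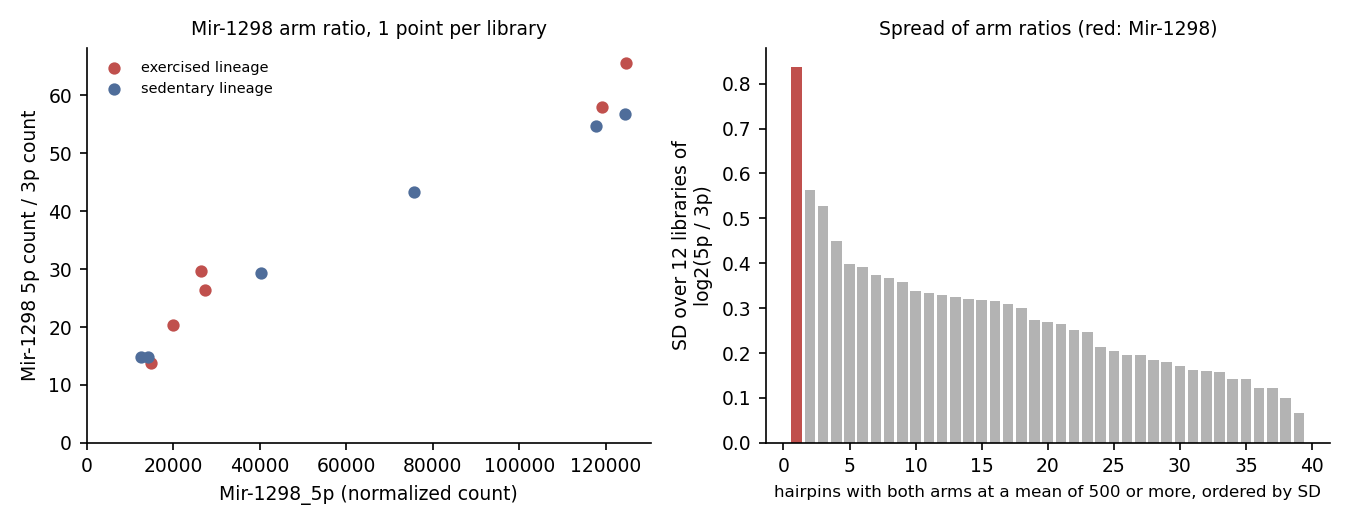
Left, the ratio of Mir-1298 5p to 3p counts against Mir-1298_5p, 1 point per library, from 13.7 in exercised mouse 6 to 65.6 in exercised mouse 3. Right, the SD of the log2 arm ratio over 12 libraries for 39 hairpins with both arms at a mean of 500 or more, with Mir-1298 at 0.84 as the highest bar.

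Among the 469 tested arms not chosen by the rule, those whose pattern was most like that of the hosted guides came from 3 families. For Mir-1298_5p these were Mir-95-P4_5p* (r = 0.96), Mir-34-P2b_5p (0.91), Mir-204-P1_5p (0.91), Mir-34-P2b_3p* (0.91) and Mir-34-P2a_5p (0.90), each over 12 libraries on the log2 scale. The same 5 arms headed the list for Mir-448_3p, and 4 of them, with Mir-95-P4_3p (0.95) in the first place, headed that for Mir-1912_3p. No source used here ties Mir-95-P4 to a miRBase hairpin or a position in the genome, so whether it lies outside Htr2c is not known here. Mir-34 is a family known from ciliated cells, and Mir-204, from an intron of Trpm3, is known from the choroid plexus and the retinal pigment epithelium. Of the 469 arms, 9 had r above 0.8 with Mir-1298_5p, and the median r was -0.073. The hosted guides varied more than these arms. Mir-204-P1_5p had 13796, 15422 and 34387 normalized counts (lowest, median, highest) in the exercised and 13329, 26092 and 35935 in the sedentary lineage, a 2.70-fold span. Mir-34-P2b_5p spanned 3.71-fold and Mir-95-P4_5p* 4.63-fold. The ratio of Mir-1298_5p to Mir-204-P1_5p therefore ran from 1.08 to 4.33 in the exercised and from 0.651 to 3.98 in the sedentary lineage.

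**Figure D5:**
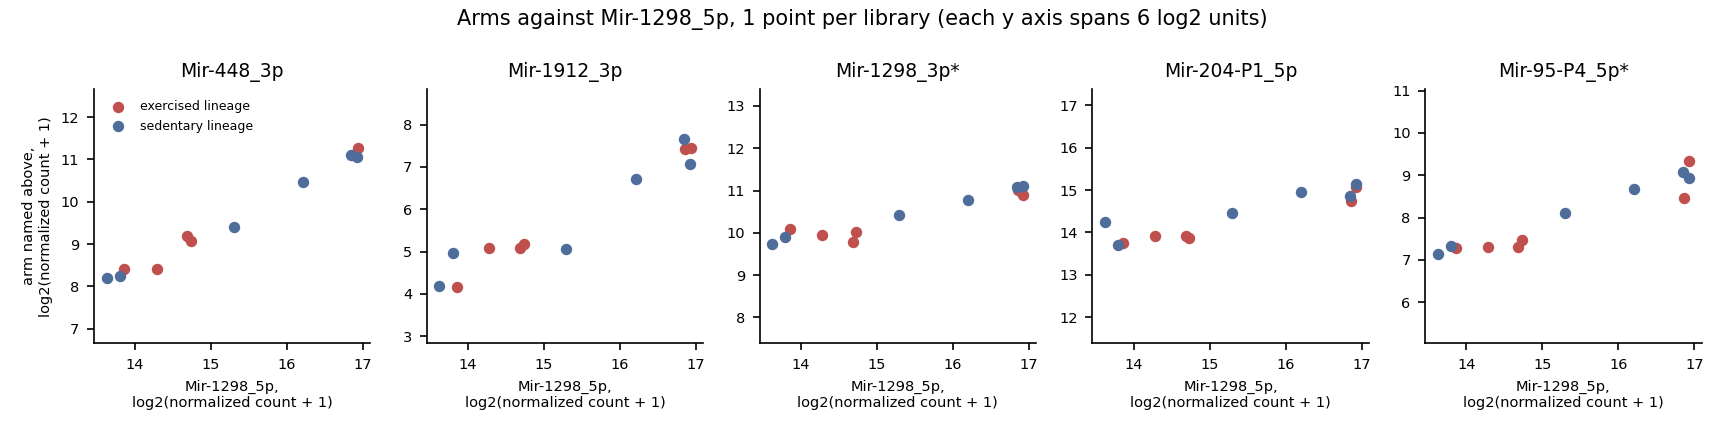
Level of 5 arms against that of Mir-1298_5p, both as log2(normalized count + 1), 1 point per library, with exercised-lineage libraries in red and sedentary-lineage libraries in blue. Mir-448_3p and Mir-1912_3p climb with slopes of 0.93 and 0.95, Mir-1298_3p* with 0.39 and Mir-204-P1_5p with 0.37.

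The choroid plexus and ependyma companions, all arms of Mir-204 and Mir-34, held 2 tested arms with a fold above 0 and 6 below, with 0 of 8 called (median fold -0.17, beside -0.0013 over all arms). Their summed level was 30504 to 74845 normalized counts in the exercised and 31060 to 77855 in the sedentary lineage, no arm of the list was at 0 in all libraries, and the sum had r = 0.95 with Mir-1298_5p. The list was chosen with earlier results of these data known. It holds the Mir-204 and Mir-34 arms already picked above as most alike in the same libraries, so a high r of the sum is no separate evidence. The list is not uniform. Mir-34-P1_5p, a widely expressed p53-regulated arm, had r = -0.10 and Mir-34-P3a_5p had 0.20, and these are the 2 arms with a fold above 0. The other 6 arms had r of 0.82 to 0.91 with Mir-1298_5p, and their part in the spread of the hosted arms was not tested. In whole tissue, fewer cells of a type and less of its RNA per cell cannot be told apart.

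The other cell-type lists differed in direction, and the endothelial and mural sum moved opposite to Mir-1298_5p. The summed level of the neuron list had r = -0.30 with Mir-1298_5p over 12 libraries and spanned 1.70-fold, and 0 of its 18 arms were called (11 above 0, 7 below, median fold 0.06). Mir-9 5p, its most abundant arm, had r = -0.25, Mir-128 3p had -0.0086, Mir-218 5p had -0.64 and Mir-129 5p had -0.22, and over all 18 arms r ran from -0.64 to 0.47. The endothelial and mural sum had r = -0.75, and its part in the spread of the hosted arms was not tested. That list holds Mir-126, Mir-139, Mir-143 and Mir-145, and its sum rests mainly on Mir-143_3p. This arm averaged 377051 normalized counts, beside 96274 for the next, Mir-126 3p, and had r = -0.74. Mir-126 3p had -0.53, Mir-139_5p -0.31 and Mir-126 5p -0.14. Over all 8 arms r ran from -0.74 to 0.29, the last in Mir-139_3p*. In that list 0 of its 8 arms were called (2 above 0 and 6 below, median fold -0.11). The epithelial and sensory list, whose rows are of the Mir-8 and Mir-96 families, had r = 0.19 and spanned 12.3-fold, with 3 arms above 0, 7 below and 0 called. Sedentary replicate 5, one of the 5 libraries with most Mir-1298_5p, stood at 39238 normalized counts and the other 11 at 3197 to 7988. Without it the span was 2.498-fold and r was 0.022, an alternative chosen after seeing the data. For the oligodendrocyte, erythroid, microglia and leukocyte, and muscle lists, r of the summed level was -0.35, 0.31, -0.44 and -0.30. Their single arms ran from -0.36 to -0.17, -0.13 to 0.45, -0.66 to 0.45 and -0.33 to 0.41, in the same order. The median r of the arms was -0.24, -0.0099, 0.11 and -0.13, so the microglia and leukocyte sum and its median arm differ in sign, as do the erythroid ones. In these 4 lists 0 of 5, 0 of 5, 0 of 9 and 0 of 4 arms were called, and the median folds were 0.04, -0.27, 0.03 and -0.11. With each library left out in turn, r of the summed level ran from -0.89 to -0.70 for the endothelial and mural list and from -0.44 to -0.033 for the neuron list. For the muscle list it ran from -0.66 without sedentary replicate 5 to -0.17 without exercised replicate 1, and for the erythroid list from 0.084 without sedentary replicate 2 to 0.48 without exercised replicate 1.

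With the log2 level of Mir-204-P1_5p in each library as a covariate, the folds of the guides were 0.62 (SE 0.27) for Mir-1298_5p, 0.63 (SE 0.26) for Mir-448_3p and 0.57 (SE 0.37) for Mir-1912_3p. They are opposite in sign to the folds without it, and the limma adjusted p was 0.645 for each. That of Mir-1298_3p* was 0.11 (SE 0.15, limma adjusted p = 0.813), and that of Mir-448_5p* was -0.10 (SE 0.65, limma adjusted p = 0.945). Without adjustment, p was 0.0414 for Mir-1298_5p, 0.0298 for Mir-448_3p and 0.150 for Mir-1912_3p in this limma fit. In the same fit 24 of 473 arms had an unadjusted p below 0.05 and 0 were called. Mir-204-P1_5p is also among the arms most alike Mir-1298_5p in these same libraries (r = 0.91). Its own fold between the lineages, without a covariate, was -0.35 (SE 0.28). Since the covariate follows the guides and has a fold of its own, this fit cannot tell whether the guides differ between the lineages.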

How the data were processed

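Small RNA was measured in 12 hippocampal libraries, 6 per lineage, grouped by title. A Qiagen miRNA kit and a New England Biolabs small RNA kit were used, per the labels' protocols. The signal the authors deposited is a normalized count per mature arm. Its values are not whole although the columns are named raw, and each library has its own scale. The tools named are Bowtie 1.3.0 and DESeq2, with build mm10, per the submitters' processing notes. How reads were trimmed, how multi-mapping was treated and how rows were filtered is not given in the sources used here. In each library 100% of values are whole multiples, within 0.01, of 1 step, which was taken as 1 read for depth and for reads per arm. The smallest positive values were 2 to 6 steps, so low values alone did not show single reads and no count model was fitted.

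Arms with a mean of at least 10 were compared with limma 3.58.1 in R 4.3.3 (eBayes, trend on) after log2(value + 1), which understates differences of low values, with Benjamini-Hochberg adjustment over all 474 arms. Arm ratios were compared by exact permutation. The test was checked on simulated data. The named arms are all hosted arms, the 5 arms most alike each guide, and up to 4 abundant arms of the 8 marker lists. The members and lists were chosen with earlier results of these data known. Alternatives covered pseudocounts, filters, scaling, blocks, covariates and left-out libraries.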

Additional observations from a re-analysis of the deposited data

Results flagged for a closer look

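Mir-448_5p* is listed at 0 in exercised replicate 4 (log2 value 0), with the nearest other library of that lineage at 3.00, a gap of 0.711 of the group's range and above Dixon's 95% critical value for 6 samples. Among the marker arms, Mir-133 3p stood apart upward in exercised replicate 6, with a log2 value of 6.54 (91.8 normalized counts) and the nearest other library at 5.53. Mir-338-P1_5p* stood apart downward in sedentary replicate 1, with a log2 value of 10.3 (1299 normalized counts) and the nearest other library at 10.9. These 3 came from 86 groups examined, where chance gives about 1 in 20. The guide arms of Mir-1298, Mir-448 and Mir-1912 gave no such library, since several mice of each lineage were high.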

How the results depend on the processing

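The number of arms called was 0 under every alternative run (23 settings), with 16 to 48 arms at an unadjusted limma p below 0.05. No hosted arm was called where it was tested. Mir-1912_3p was not tested with a minimum mean of 100. Mir-448_5p* fell under the filter there, without the R31 libraries, and without exercised replicate 1, sedentary replicate 3 or sedentary replicate 5, so that its range below rests on 9 left-out libraries. The signs of the folds were less stable. Leaving out 1 library gave folds of -0.59 to 0.071 for Mir-1298_5p, -0.37 to -0.092 for Mir-1298_3p*, -0.50 to 0.11 for Mir-448_3p, -0.62 to 0.17 for Mir-448_5p* and -0.57 to 0.13 for Mir-1912_3p, and log2 arm-ratio differences of -0.23 to 0.22 for Mir-1298 and -0.58 to 0.0995 for Mir-448. Without the R41 libraries the folds were 0.71 for Mir-1298_5p, 0.064 for Mir-1298_3p*, 0.78 for Mir-448_3p, 0.43 for Mir-448_5p* and 0.71 for Mir-1912_3p. Without the S11 libraries they were 0.68, 0.15 and 0.61 for Mir-1298_5p, Mir-1298_3p* and Mir-448_3p, and 0.44 for Mir-1912_3p. Leaving out the other set of either lineage moved the folds down. For Mir-1298_5p, Mir-1298_3p*, Mir-448_3p and Mir-1912_3p they were -1.16, -0.49, -1.11 and -1.14 without R31, and -1.13, -0.58, -0.94 and -0.87 without S41. With the Mir-204-P1_5p covariate, Mir-1298_5p, Mir-1298_3p*, Mir-448_3p and Mir-1912_3p had 0.62, 0.11, 0.63 and 0.57. The Mir-1298 arm ratio differed by 0.65 without R41 and 0.53 without S11, and that of Mir-448 by 0.32 without S41 and 0.060 with a pseudocount of 10. The cause of these reversals, including those with the covariate, was not tested. Scaling to equal totals moved the median fold of all arms to 0.085 and that of Mir-1298_5p to -0.14.

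Taken across arms, mice with the same number did not vary together (r of deviations from the lineage means -0.17 to 0.15, above 0.1 in 1 of 6 pairs), so the numbers were not taken as pairs. With the mouse number as a replicate block, 0 arms were called, and 16 arms had an unadjusted limma p below 0.05. The folds stayed as given, which they must with 1 mouse of each lineage per number. The SE of Mir-1298_5p was 0.43 with the block and 0.71 without it, so the lack of pairing across arms need not hold for this arm. The planned count tests were not run, because the deposited steps did not give whole reads from the low values alone. Mir-448_5p* (at most 21 reads) is limited by depth.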
